A study of Mus musculus with 8 samples.

Results

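The levels of 10 enzyme genes of superoxide and peroxide removal were followed in the left ventricle of 6-month-old mice on a C57 background. They were taken by gene symbol from the deposited table, which holds all 10 of them among 14578 genes, on 23 of its 33027 transcript rows. The 8 libraries of total RNA stand for 3 genotypes: 3 libraries of mdx mice with 1 functional Sln allele (mdx sln+/-), 3 libraries of mdx mice and 2 wild-type (WT) libraries. The mdx mutation lies in Dmd and removes full-length dystrophin from every cell, while shorter dystrophins from downstream promoters are not affected by it. Sln encodes sarcolipin, which inhibits the calcium pump of the sarcoplasmic reticulum, and both mdx groups carry the Dmd mutation. The labels give no sex. They also leave unsaid whether each library is its own mouse, and a p-value here reflects only the variation among the libraries, part of which may be technical. The stated aim of the study was to find molecular pathways tied to cardiac pathology.

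Superoxide dismutases turn superoxide into hydrogen peroxide, and catalase, glutathione peroxidases and peroxiredoxins remove the peroxide. The dismutases differ by place: Sod1 is mostly cytosolic, Sod2 is in the mitochondrial matrix and Sod3 is secreted into the matrix around cells. Catalase sits mainly in peroxisomes, Gpx1 in the cytosol and mitochondria, Gpx3 in extracellular fluid, and Gpx4 reduces lipid peroxides in membranes. Peroxiredoxins are peroxidases that thioredoxin recharges, with Prdx1 mainly cytosolic, Prdx3 mitochondrial and Prdx5 in several compartments. The heart holds many mitochondria, which are a main source of superoxide in cardiac muscle.

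Gpx1, Gpx3 and Gpx4 are selenoproteins, and their messenger RNAs read a TGA codon as selenocysteine in the active site. That codon is shown because it sets these 3 genes apart from the other 7 and ties their translation to selenium. The stretches below run 5′ to 3′, are taken from GENCODE M21 transcripts, and have the selenocysteine codon in capitals. In mm10 the codon lies on the plus strand at chr9:108339451-108339453 in exon 1 of 2 of Gpx1-201. It lies at chr11:54907256-54907258 in exon 2 of 5 of Gpx3-201 and at chr10:80054737-80054739 in exon 2 of 6 of Gpx4-207.
Gpx1-201: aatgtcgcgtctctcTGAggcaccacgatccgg
Gpx3-201: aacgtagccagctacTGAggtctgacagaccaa
Gpx4-207: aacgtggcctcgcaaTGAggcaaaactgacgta

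Cat and Gpx1 were the only members that passed the test against WT, and the 250 bases before their RefSeq starts (GRCm38.p6) are shown for that reason. The Cat stretch is chr2:103485154-103485403 on the minus strand, and capitals mark its motif matches. The Gpx1 stretch is chr9:108338830-108339079 on the plus strand and reaches into the retained-intron transcript Gpx1-203 of GENCODE.
Cat promoter: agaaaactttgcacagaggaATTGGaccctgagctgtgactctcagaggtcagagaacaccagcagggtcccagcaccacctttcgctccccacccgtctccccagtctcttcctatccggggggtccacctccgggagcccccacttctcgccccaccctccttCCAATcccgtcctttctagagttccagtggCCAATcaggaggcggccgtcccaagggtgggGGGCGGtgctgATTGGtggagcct
Gpx1 promoter: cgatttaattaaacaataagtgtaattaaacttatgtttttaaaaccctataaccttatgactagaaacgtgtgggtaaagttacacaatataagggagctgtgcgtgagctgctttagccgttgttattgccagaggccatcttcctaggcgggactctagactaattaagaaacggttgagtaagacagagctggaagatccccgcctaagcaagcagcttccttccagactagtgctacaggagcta
A set of 7 motifs was searched on both strands. It held the CCAAT box (CCAAT), the GC box (GGGCGG), the TATA box (TATAAA), the antioxidant response element core (TGACNNNGC), the E-box of clock factors (CACGTG), a FOXO motif (GTAAACA) and the CRE (TGACGTCA). Cat held 4 CCAAT boxes and 1 GC box, and Gpx1 held a match to none of the 7. Among 32851 promoters of the same length, 33.8% held a CCAAT box, 32.7% a GC box, 12.4% a TATA box and 10.2% the antioxidant core. The E-box was in 6.02% of them, the FOXO motif in 3.17% and the CRE in 1.55%. The stretches also differ in composition, with 62.0% G and C in Cat and 42.0% in Gpx1, beside a median of 52.4% over all promoters. A match describes the letters of the window and says nothing of binding in these hearts.

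The deposited values are log2 abundances, used here as log2(abundance + 1), a scale that understates changes of low genes. Whether they were divided by transcript length is not stated, so levels are compared between libraries and never between genes. Depth is unknown, since no counts were used, and abundances sum to between 780262 and 924253 per library. Dmd served as the check of the genotype labels and had log2 levels of 4.09 to 4.25 in mdx sln+/-, 4.22 to 4.32 in mdx, and 6.60 and 6.98 in WT. Sln itself was not analysed here. A term that sets mdx 2 and mdx sln+/- 2 apart from the other 4 mdx-background libraries had been removed from the values before deposit, and it was fitted beside the group. Each comparison below is a limma test over all 13783 genes tested, adjusted by Benjamini-Hochberg, with 0.05 as the threshold and the standard error after ±.

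Against WT, catalase was lower and Gpx1 higher in the mdx ventricle, and the same pair passed the test in the mdx sln+/- ventricle. The other 8 members did not pass in either comparison. In mdx against WT, 2 of the 10 members were called, beside 15.1% of all genes tested, and in mdx sln+/- against WT also 2 of 10, beside 15.9%. By direction, 1 of 10 rose in mdx, beside 8.15% of all genes, and 1 of 10 fell, beside 6.94%. The mdx sln+/- ventricle also had 1 of 10 higher, beside 9.41%, and 1 of 10 lower, beside 6.5%. The share of members is thus near the background, and the count by itself is no result about the family. The median log2 fold change of the 10 members was -0.08 in mdx and 0.06 in mdx sln+/- against WT, beside 0.02 and 0.05 over all genes. The comparisons with WT share its 2 libraries and are not independent of each other.

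**Figure D1:**
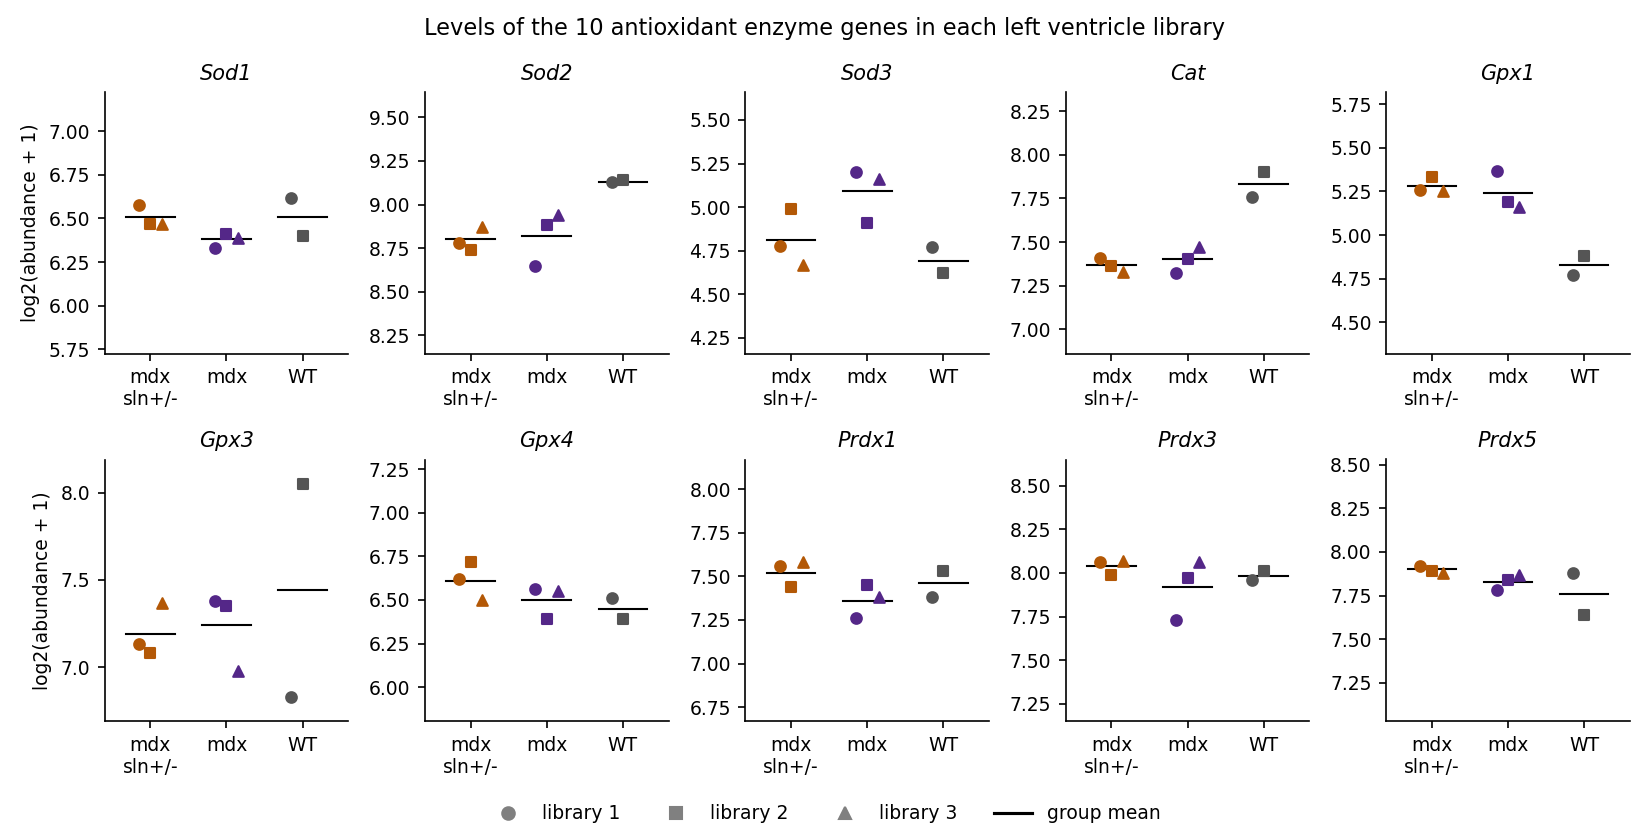
Level of each of the 10 genes, log2(abundance + 1), in every library of mdx sln+/- (n = 3), mdx (n = 3) and WT (n = 2), with markers for the library number and a line for the group mean; each panel spans the same range of log2 units. Cat lies between 7.32 and 7.47 in the 6 mdx-background libraries, under both WT libraries, Gpx1 lies above both WT libraries in all 6, and the WT libraries lie far apart for Gpx3.

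Catalase (Cat, ENSMUSG00000027187), which splits hydrogen peroxide into water and oxygen, lies at chr2:103453849-103485160 on the minus strand. Its log2 level was 7.41, 7.36 and 7.33 in mdx sln+/- 1, 2 and 3. It was 7.32, 7.40 and 7.47 in mdx 1, 2 and 3, and 7.76 and 7.90 in WT 1 and 2. All 6 mdx-background libraries lay below both WT libraries, and the mdx groups overlapped each other. The mean and SD were 7.37 ± 0.04 over the 3 mdx sln+/- libraries, 7.40 ± 0.08 over the 3 mdx libraries and 7.83 ± 0.10 over the 2 WT libraries. Cat fell by 0.44 ± 0.08 in mdx against WT, 1.35-fold lower (limma, adjusted p = 0.017; 95% interval -0.63 to -0.24). It fell by 0.46 ± 0.08 in mdx sln+/- against WT, 1.38-fold lower (limma, adjusted p = 0.0136; 95% interval -0.65 to -0.27). The direction held in all 25 alternatives, with log2 fold changes of -0.51 to -0.35 in mdx and -0.53 to -0.36 in mdx sln+/- against WT. The adjusted p ran over them from 0.00382 to 0.294 in mdx and from 0.00286 to 0.205 in mdx sln+/-. Without WT 2 the call was lost, with adjusted p = 0.0785 in mdx and 0.0652 in mdx sln+/- (limma). Leaving out mdx sln+/- 1 (adjusted p = 0.064) or mdx sln+/- 3 (0.0686, limma) also lost the call in mdx sln+/-.

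Gpx1 (ENSMUSG00000063856), the most widely expressed glutathione peroxidase, lies at chr9:108338903-108340343 on the plus strand. Its log2 level was 5.26, 5.33 and 5.25 in mdx sln+/- 1, 2 and 3. It was 5.37, 5.19 and 5.16 in mdx 1, 2 and 3, and 4.77 and 4.88 in WT 1 and 2. Each mdx-background library was above both WT libraries. Gpx1 rose by 0.41 ± 0.09 in mdx against WT, 1.33-fold higher (limma, adjusted p = 0.0257; 95% interval 0.20 to 0.62). It rose by 0.45 ± 0.09 in mdx sln+/- against WT, 1.37-fold higher (limma, adjusted p = 0.0195; 95% interval 0.24 to 0.66). Over the 25 alternatives its log2 fold change stayed above 0, at 0.18 to 0.47 in mdx and 0.26 to 0.53 in mdx sln+/-. The adjusted p ran from 0.00683 to 0.386 in mdx and from 0.00474 to 0.207 in mdx sln+/-. The call in mdx was lost without WT 1 (adjusted p = 0.0868), WT 2 (0.0677), mdx 1 (0.0597) or mdx sln+/- 1 (0.0652, limma). The call in mdx sln+/- was lost without WT 1 (adjusted p = 0.0656), WT 2 (0.0529), mdx sln+/- 1 (0.0915) or mdx sln+/- 3 (0.0696, limma). In bulk RNA, a change in the number of cells of a type and a change in RNA per cell cannot be told apart.

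The source names of the libraries come in a pair of styles: the 2 WT libraries, mdx 3 and mdx sln+/- 3 have plain source names, and the other 4 carry an index. No WT library is among the indexed ones. With the name style as a further term, Cat had a log2 fold change of -0.42 in mdx against WT (limma, adjusted p = 0.0707) and Gpx1 0.36 (adjusted p = 0.10). The same term gave -0.45 for Cat (limma, adjusted p = 0.0563) and 0.40 for Gpx1 (adjusted p = 0.0782) in mdx sln+/- against WT. Among the plain-named libraries alone, Cat was at -0.36 (adjusted p = 0.294) and Gpx1 at 0.34 (adjusted p = 0.337). For mdx sln+/- against WT the plain-named libraries gave -0.50 for Cat (adjusted p = 0.134) and 0.42 for Gpx1 (adjusted p = 0.195). In that subset each mdx group has 1 library, which is assumed to vary like the WT libraries, and the fit has 1 residual degree of freedom. Its p-values therefore say little, while the directions were those of the fit on all 8 libraries.

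**Figure D2:**
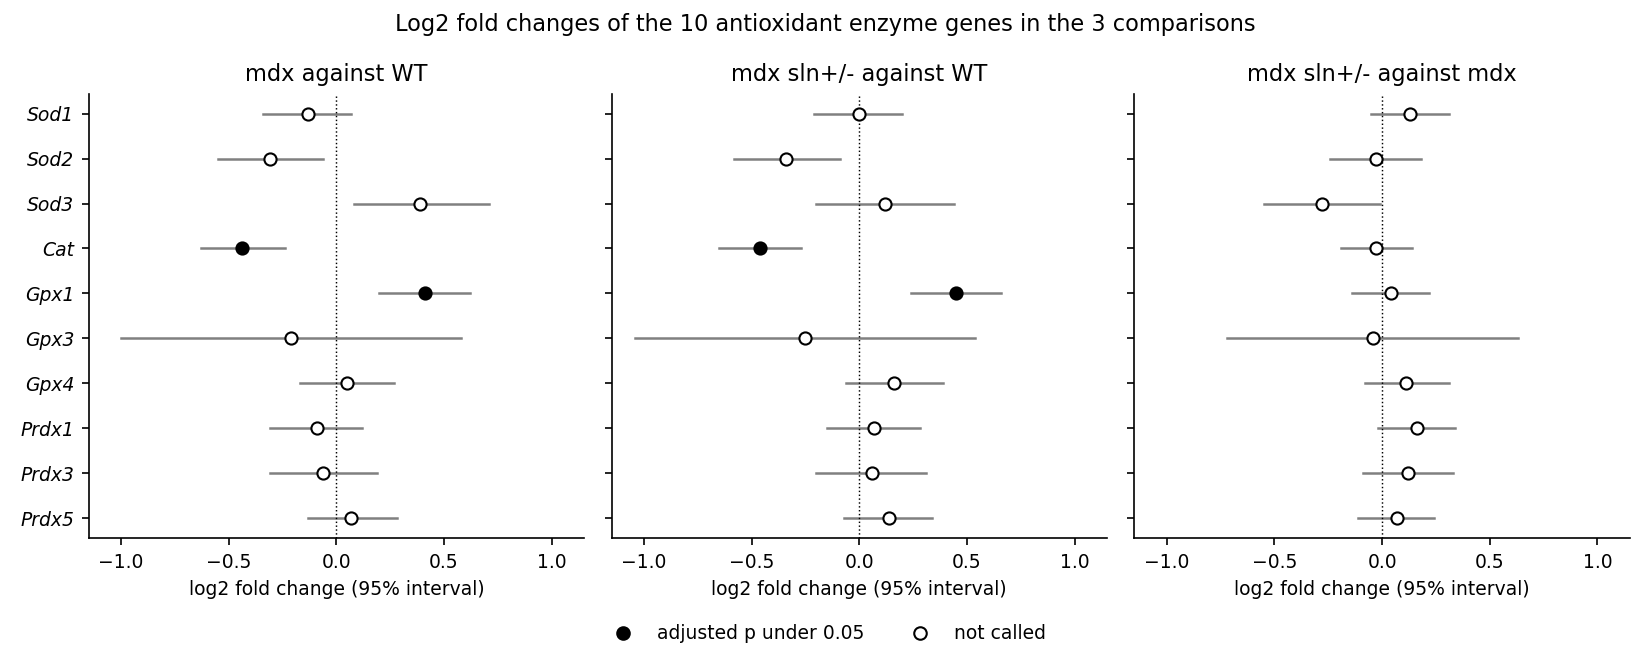
Log2 fold change of each of the 10 genes (x axis) with its 95% interval from limma, in mdx against WT, mdx sln+/- against WT and mdx sln+/- against mdx; filled points passed an adjusted p of 0.05. Cat at -0.44 and -0.46 and Gpx1 at 0.41 and 0.45 are the filled points, and the intervals of Gpx3 are the widest.

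Among the dismutases, Sod2, the manganese enzyme of mitochondria (chr17:13006846-13040063, plus strand), was lower than WT in every mdx-background library without passing the test. Its log2 level was 8.78, 8.74 and 8.87 in mdx sln+/-, 8.65, 8.88 and 8.94 in mdx, and 9.13 and 9.14 in WT. The log2 fold change was -0.31 ± 0.11 in mdx (limma, adjusted p = 0.091) and -0.34 ± 0.11 in mdx sln+/- (adjusted p = 0.0692) against WT. Without mdx 1 the comparison of mdx sln+/- with WT gave -0.31 (limma, adjusted p = 0.0243), and without mdx 2 it gave -0.34 (adjusted p = 0.0412), both past the threshold. It also passed there with only the groups compared (-0.34, adjusted p = 0.0137), with group only (-0.34, adjusted p = 0.0266) and with median-ratio scaling (-0.39, adjusted p = 0.0367, limma). In mdx against WT it passed with group only (-0.31, limma, adjusted p = 0.0376). The removed term was not fitted without mdx 2, with only the groups compared or with group only. Over the 25 alternatives the adjusted p of Sod2 ran from 0.0376 to 0.602 in mdx and from 0.0137 to 0.419 in mdx sln+/-.

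Sod3, the secreted dismutase (chr5:52363791-52371418, plus strand), had log2 levels of 4.78, 4.99 and 4.67 in mdx sln+/-. It had 5.20, 4.91 and 5.16 in mdx, and 4.77 and 4.62 in WT. The 3 mdx libraries were above both WT libraries, and the mdx sln+/- libraries overlapped both other groups. The difference was 0.39 ± 0.14 in mdx against WT (limma, adjusted p = 0.094). It passed the threshold without mdx 2 (0.49, adjusted p = 0.028) and without mdx sln+/- 2 (adjusted p = 0.0342, limma), and also with group only (adjusted p = 0.0433). None of these fits held the removed term, so a library left out and the missing term cannot be told apart there. Its value in mdx sln+/- against WT was 0.12 ± 0.14 (limma, adjusted p = 0.576).

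Sod1, the copper and zinc enzyme of the cytosol (chr16:90220754-90226329, plus strand), had log2 levels of 6.47 to 6.58 in mdx sln+/-, 6.33 to 6.41 in mdx, and 6.40 and 6.62 in WT. The mdx sln+/- libraries lay between the WT libraries, and the mdx libraries lay at or near the lower of them. The log2 fold change was -0.13 ± 0.09 in mdx against WT (limma, adjusted p = 0.337), with a 95% interval of -0.34 to 0.07. Sod1 overlaps Scaf4 on the other strand, and its transcript matches the pseudogene Gm8566 at 97.8% identity over 465 bases, so reads could have been split between them.

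The other glutathione peroxidases showed no call. Gpx3 (chr11:54902453-54910377, plus strand), which circulates in plasma, had 7.13, 7.08 and 7.37 in mdx sln+/-, 7.38, 7.35 and 6.98 in mdx, and 6.83 and 8.05 in WT on the log2 scale. The WT libraries were the lowest and the highest of all 8, with a group SD of 0.86. The log2 fold change was -0.21 ± 0.34 in mdx and -0.25 ± 0.34 in mdx sln+/- against WT, with 95% intervals of -1.0 to 0.58 and -1.04 to 0.54 (limma, adjusted p = 0.707 and 0.633). Without WT 2 its sign turned, to 0.40 in mdx and 0.36 in mdx sln+/- (limma, adjusted p = 0.271 and 0.313). Without WT 1 it was called lower in mdx sln+/- against WT, at -0.86 (limma, adjusted p = 0.0433). A direction for Gpx3 thus depends on which WT library is used.

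Gpx4 (chr10:80047166-80056439, plus strand) had log2 levels of 6.50 to 6.72 in mdx sln+/-, 6.39 to 6.56 in mdx, and 6.39 and 6.51 in WT. Its log2 fold change was 0.05 ± 0.10 in mdx (limma, adjusted p = 0.754; 95% interval -0.17 to 0.27) and 0.16 ± 0.10 in mdx sln+/- against WT (adjusted p = 0.265; 95% interval -0.06 to 0.39). The pseudogene Gpx4-ps2, also in the table, matches a Gpx4 transcript at 99.7% identity over 762 bases, so its reads and those of Gpx4 could be mixed.

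None of the 3 peroxiredoxins was called against WT. Prdx1 (chr4:116685544-116700822, plus strand) had 7.44 to 7.58 in mdx sln+/-, 7.26 to 7.45 in mdx, and 7.38 and 7.53 in WT, as log2 levels. The mitochondrial Prdx3 (chr19:60864051-60874556, minus strand) had 7.99 to 8.07 in mdx sln+/-, 7.73 to 8.06 in mdx, and 7.96 and 8.01 in WT. Its lowest library was mdx 1, and the log2 fold change in mdx against WT was -0.06 with it and 0.07 without it. Prdx5 (chr19:6906697-6910106, minus strand) had 7.88 to 7.92 in mdx sln+/-, 7.78 to 7.87 in mdx, and 7.88 and 7.64 in WT. Its mdx sln+/- libraries were all above WT 1, the higher WT library, by too little to show at this rounding. The 95% intervals against WT lay within -0.31 and 0.34 for all 3 peroxiredoxins, and adjusted p ran from 0.304 to 0.747 (limma). Prdx1 resembles the pseudogenes Gm21399 (98.3% over 597 bases) and Gm7204 (97.5%), and Prdx5 overlaps Trmt112 on the other strand over 360 bases, so both carry that uncertainty.

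Groups that did not overlap were no rarer among other genes. In mdx against WT, 4 of the 10 members (Sod2, Sod3, Cat and Gpx1) did not overlap, beside 51.4% of all genes tested. Against the same WT libraries, 4 of 10 (Sod2, Cat, Gpx1 and Prdx5) did not overlap in mdx sln+/-, beside 59.8%.

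Between the mdx sln+/- and mdx ventricles no member was called, and the background is also 0.0%, since none of the 13783 genes passed (limma, smallest adjusted p = 0.477; 1186 genes at an unadjusted p under 0.05). Cat differed by -0.03 ± 0.07, with a 95% interval of -0.19 to 0.14, and Gpx1 by 0.04 ± 0.08, with an interval of -0.14 to 0.22. Sod3 had the largest difference of the 10, at -0.28 ± 0.12 in mdx sln+/- against mdx (limma, adjusted p = 0.578), with overlapping groups. Sod1 and Prdx5 did not overlap between the groups, beside 24.8% of all genes. Sod1 was at 6.47 to 6.58 in mdx sln+/- and 6.33 to 6.41 in mdx, a difference of 0.13 ± 0.08 (limma, adjusted p = 0.646). Prdx5 differed by 0.07 ± 0.07 (limma, adjusted p = 0.819). The 95% intervals reached -0.55 for Sod3, and -0.72 and 0.63 for Gpx3, and those of the other 8 members lay between -0.24 and 0.34. A difference within these bounds may have been missed.

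The transcript rows show which forms carry the called genes. Cat has 2 coding transcripts in the table, and Cat-201 held 96.6% to 96.9% of its abundance in mdx sln+/-, 95.7% to 97.1% in mdx and 98.0% to 98.2% in WT. Cat-201 fell by 0.46 ± 0.09 in mdx (limma over 29021 transcripts, adjusted p = 0.0276) and by 0.48 ± 0.09 in mdx sln+/- against WT (adjusted p = 0.0207). Cat-202 was higher in each mdx-background library than in WT, at 2.58 to 2.72 in mdx sln+/-, 2.61 to 2.98 in mdx, and 2.31 and 2.52 in WT, without a call (log2 fold change 0.36 ± 0.16 in mdx against WT, limma, adjusted p = 0.189). Of the 23 member transcripts, Cat-201 was the only one called in each comparison with WT, beside 8.29% of all transcripts in mdx and 10.1% in mdx sln+/-.

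No single Gpx1 transcript was called. Gpx1-204 held 38.7% to 45.5% of the gene in mdx sln+/-, 38.1% to 44.6% in mdx and 41.9% to 54.9% in WT. Its log2 fold change was 0.18 ± 0.13 in mdx against WT (limma, adjusted p = 0.433), with overlapping groups. Gpx1-202, at 3.68 to 3.89 in mdx sln+/-, 3.74 to 4.04 in mdx, and 3.07 and 3.48 in WT, had 0.57 ± 0.17 in mdx against WT (limma, adjusted p = 0.075). For Gpx1-201 the value was 0.55 ± 0.19 (limma, adjusted p = 0.119). With the most abundant transcript in place of the summed gene, Gpx1 was at 0.18 in mdx and 0.26 in mdx sln+/- against WT and not called (limma, adjusted p = 0.386 and 0.207).

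**Figure D3:**
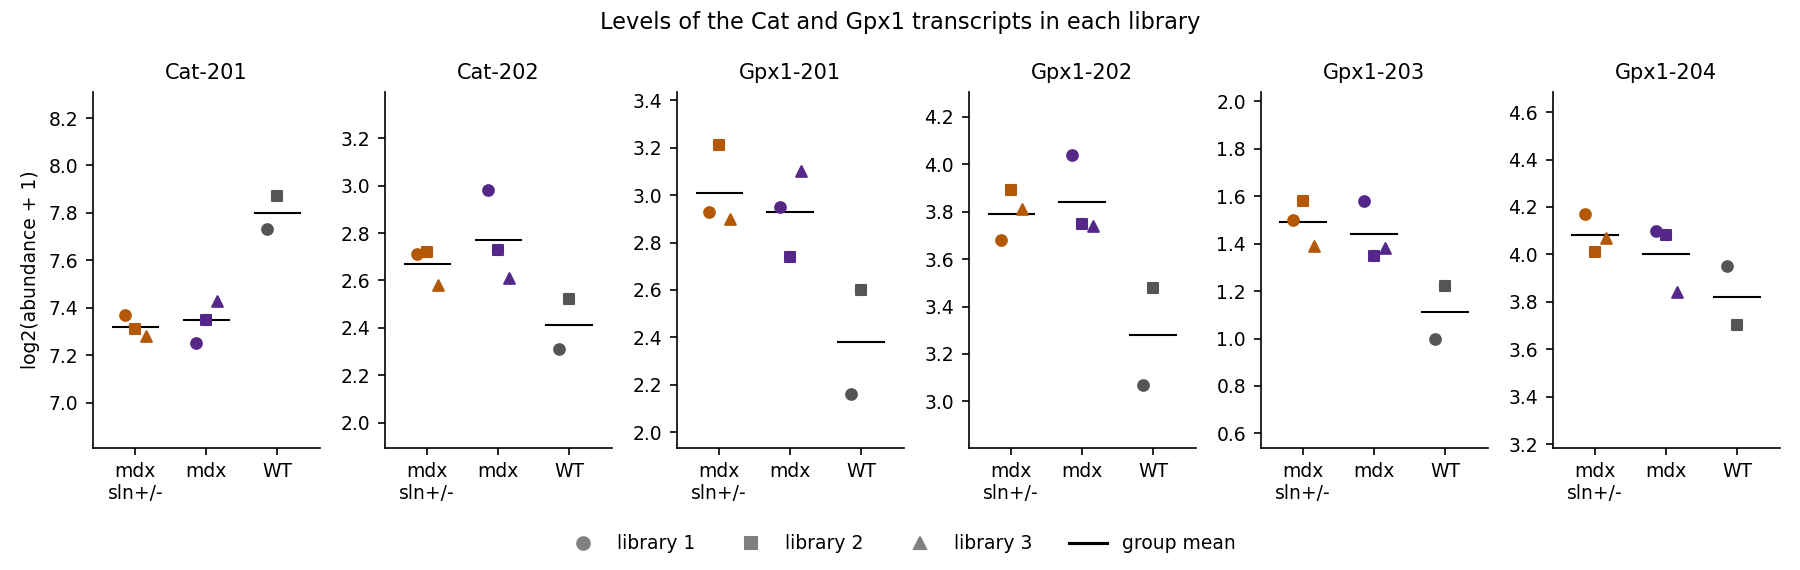
Level of the Cat and Gpx1 transcripts, log2(abundance + 1), in every library of mdx sln+/-, mdx and WT, with a line at the group mean; each panel spans the same range of log2 units. Cat-201 is lower in all 6 mdx-background libraries than in WT, while Gpx1-201 and Gpx1-202 are higher and Gpx1-204 overlaps WT in mdx.

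Each library has 2 value columns, r1 and r2, whose meaning is not stated, and both were averaged to 1 value. For Cat they differed by 0.15 or less on the log2 scale in every library. Gpx1 differed by up to 0.46, which is as large as its difference between groups. In WT 1, Gpx1 was at 4.57 in r1 and 5.03 in r2, and the r2 value was 5.07 in mdx 2. With r1 alone both members were called in both comparisons with WT, and with r2 alone Cat was called but Gpx1 was not. In r2 alone Gpx1 had a log2 fold change of 0.35 in mdx (limma, adjusted p = 0.0784) and 0.39 in mdx sln+/- against WT (adjusted p = 0.0598). Over transcripts with a mean log2 level above 6, the columns differed with an SD of 0.248 in mdx 1 and 0.216 in mdx sln+/- 1. That SD was 0.12 to 0.159 in the other libraries, and the Gpx1 transcripts lie below this level.

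**Figure D4:**
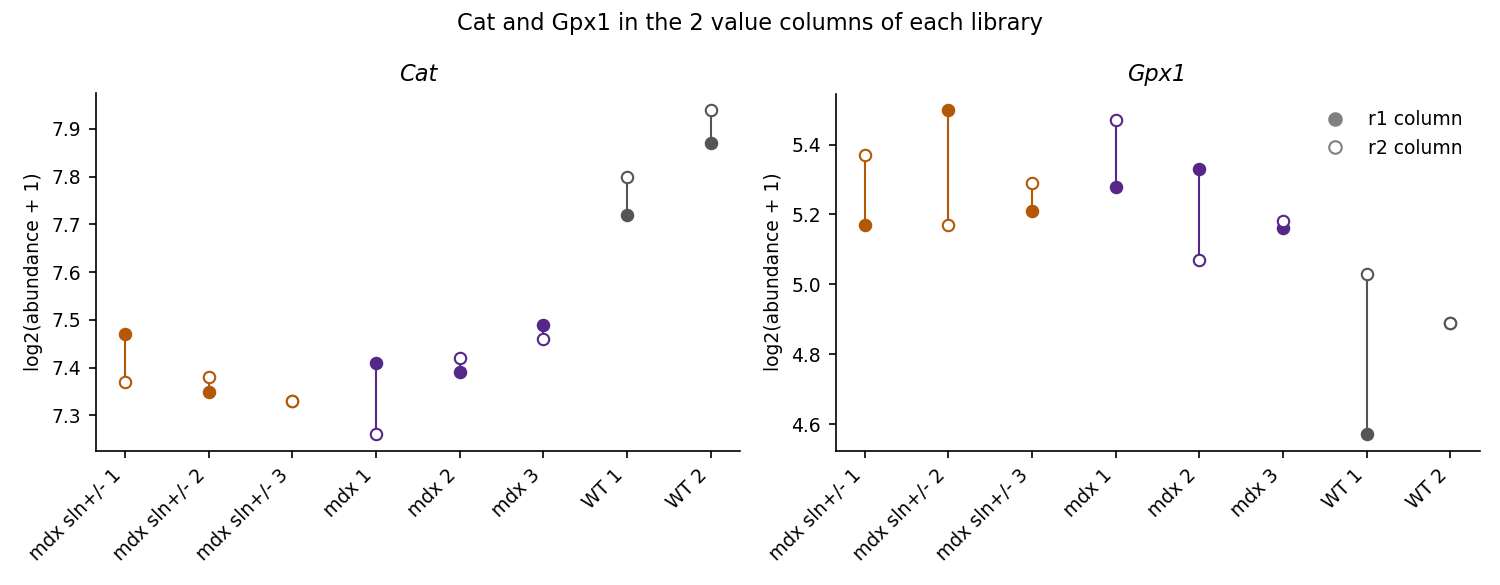
Level of Cat (left) and Gpx1 (right), log2(abundance + 1), in the r1 column (filled) and r2 column (open) of each library, with a line joining the pair. The columns of Cat lie within 0.15 of each other, and those of Gpx1 lie up to 0.46 apart, in WT 1.

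Related enzymes outside the 10 were read from lists chosen with earlier results of these data known. Counts for each list from here on, cell type markers included, stand beside the shares of all genes tested. Those are 8.15% higher and 6.94% lower in mdx against WT, and 9.41% higher and 6.5% lower in mdx sln+/- against WT. A list of 9 tested genes held other peroxiredoxins and glutathione peroxidases, membrane glutathione transferases, Pxdn and the copper chaperone of Sod1. Of the 9, 2 rose and 1 fell in mdx against WT, and 4 rose and 1 fell in mdx sln+/- against WT. The median log2 fold change of these 9 was 0.22 in mdx and 0.26 in mdx sln+/-, beside 0.02 and 0.05 over all genes. Mgst1, a membrane enzyme with glutathione transferase and peroxidase activity, fell by 1.23 ± 0.17 in mdx (limma, adjusted p = 0.00748) and by 1.40 ± 0.17 in mdx sln+/- (adjusted p = 0.00575). Pxdn, a peroxidase that crosslinks collagen IV, rose by 0.63 ± 0.12 in mdx (limma, adjusted p = 0.0182) and by 0.91 ± 0.12 in mdx sln+/- (adjusted p = 0.00666). Gpx8, a peroxidase of the endoplasmic reticulum named after its values were seen, rose by 0.37 ± 0.08 in both comparisons (limma, adjusted p = 0.0302 and 0.0304). Gpx7, also of the endoplasmic reticulum and named in the same way, rose by 0.50 ± 0.12 in mdx sln+/- (limma, adjusted p = 0.0346). Prdx2 passed in mdx sln+/- against WT alone, at 0.26 ± 0.07 (limma, adjusted p = 0.0461), and had 0.22 ± 0.07 in mdx (adjusted p = 0.0744), and its difference between the mdx groups was not called. Prdx4, Prdx6 and Ccs, the chaperone of Sod1, were not called, with 0.09 ± 0.11, -0.02 ± 0.08 and 0.26 ± 0.09 in mdx against WT (limma, adjusted p = 0.611, 0.891 and 0.0935).

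Of 24 genes listed for the thioredoxin and glutathione systems, 2 rose and 4 fell in mdx against WT, and 2 rose and 3 fell in mdx sln+/- against WT. These systems recharge the peroxidases, though not every gene on the list does so. Srxn1, which repairs overoxidised peroxiredoxins, fell by 0.86 ± 0.12 in mdx (limma, adjusted p = 0.00799) and by 0.95 ± 0.12 in mdx sln+/- (adjusted p = 0.0064). Its log2 levels were 3.9 to 4.26 in mdx sln+/-, 4.09 to 4.20 in mdx, and 4.94 and 5.06 in WT. Gclc, the catalytic subunit of the first enzyme of glutathione synthesis, fell by 0.67 ± 0.09 in mdx and by 0.74 ± 0.09 in mdx sln+/- (limma, adjusted p = 0.0063 and 0.00508). Txnrd1, the cytosolic thioredoxin reductase, fell by 0.55 ± 0.08 in mdx and by 0.63 ± 0.08 in mdx sln+/- (limma, adjusted p = 0.00837 and 0.0064). Its mitochondrial counterpart Txnrd2 was not called (0.11 ± 0.08 in mdx and 0.20 ± 0.08 in mdx sln+/-, limma, adjusted p = 0.34 and 0.113). Nnt, the mitochondrial transhydrogenase that makes NADPH, was at 9.23 to 9.38 in mdx sln+/-, 9.06 to 9.24 in mdx, and 9.61 and 9.62 in WT on the log2 scale. It fell by 0.47 ± 0.09 in mdx (limma, adjusted p = 0.0188) and differed by -0.28 ± 0.09 in mdx sln+/- against WT (adjusted p = 0.0741). Rises were seen in Gss, which completes glutathione synthesis, in both comparisons (0.40 ± 0.10 in mdx and 0.36 ± 0.10 in mdx sln+/-, limma, adjusted p = 0.0338 and 0.047). Glrx5 rose in mdx (0.32 ± 0.08, limma, adjusted p = 0.0306) and the mitochondrial thioredoxin Txn2 in mdx sln+/- (0.22 ± 0.06, adjusted p = 0.0498), and these 3 genes were named after their values were seen. Txnip, an inhibitor of thioredoxin, varied from 8.17 to 9.66 within mdx alone and was not called.

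In the selenoprotein list, which holds the machinery that reads the TGA codons shown above, 1 of 18 genes was called. Selenon, a selenoprotein of the endoplasmic reticulum in muscle, rose by 0.60 ± 0.07 in mdx and by 0.67 ± 0.07 in mdx sln+/- (limma, adjusted p = 0.00502 and 0.00389). Eefsec, the elongation factor for selenocysteine, had 0.28 ± 0.10 in mdx against WT (limma, adjusted p = 0.111), and Sepsecs, which makes its loaded tRNA, had -0.42 ± 0.14 (adjusted p = 0.0872).

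Of 16 tested genes for sources of superoxide and peroxide, 3 rose and 2 fell in mdx, and 2 rose and 2 fell in mdx sln+/- against WT. Cybb, the catalytic subunit of the phagocyte NADPH oxidase, was at 3.58 to 3.66 in mdx sln+/-, 3.39 to 3.82 in mdx, and 2.62 and 2.69 in WT on the log2 scale. It rose by 0.92 ± 0.14 in mdx and by 0.95 ± 0.14 in mdx sln+/- (limma, adjusted p = 0.00899 and 0.008). Aox1, an aldehyde oxidase, fell by 0.89 ± 0.12 in mdx and by 0.85 ± 0.12 in mdx sln+/- (limma, adjusted p = 0.00726 and 0.00786). The other called genes, named after their values were seen, were Cyba and Rac2, partners of Cybb, which rose by 0.72 ± 0.13 and 0.96 ± 0.24 in mdx, and Maob, a monoamine oxidase, which fell by 0.57 ± 0.11 (limma, adjusted p = 0.0161, 0.0375 and 0.0196).

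Among 19 regulators of antioxidant genes, 7 fell and 1 rose in mdx, and 5 fell and 1 rose in mdx sln+/- against WT. Nfe2l2, which encodes the transcription factor NRF2 of the antioxidant response, fell by 0.54 ± 0.09 in mdx and by 0.46 ± 0.09 in mdx sln+/- (limma, adjusted p = 0.0115 and 0.0163). Mafg, its small MAF partner, fell by 0.46 ± 0.08 and 0.44 ± 0.08 (limma, adjusted p = 0.0126 in mdx and 0.0136 in mdx sln+/-). Ppargc1a, a coactivator of mitochondrial and antioxidant genes, fell by 1.65 ± 0.24 in mdx and by 1.41 ± 0.24 in mdx sln+/- (limma, adjusted p = 0.00802 and 0.0117). Foxo1, a forkhead factor with antioxidant targets, fell by 0.70 ± 0.11 and 0.54 ± 0.11 (limma, adjusted p = 0.01 in mdx and 0.0204 in mdx sln+/-). The gene that rose was Trp53, which encodes p53 and was named after its values were seen, by 0.50 ± 0.11 in mdx and by 0.42 ± 0.11 in mdx sln+/- (limma, adjusted p = 0.0261 and 0.0415). The median of the 19 was -0.35 in mdx and -0.19 in mdx sln+/-, beside 0.02 and 0.05 over all genes. No relation between these regulators and the members was tested.

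A pair of lists describes the organelles in which catalase, Sod2 and Prdx3 work. Of 22 peroxisome genes, 3 fell and none rose in mdx, and 3 fell and 1 rose in mdx sln+/- against WT, with medians of 0.02 and 0.06. Ehhadh, an enzyme of peroxisomal fatty acid breakdown, fell by 0.83 ± 0.10 in mdx and by 0.54 ± 0.10 in mdx sln+/- (limma, adjusted p = 0.00483 and 0.0152). The peroxisomal transporters Abcd2 and Abcd3 fell by 0.66 ± 0.14 and 0.47 ± 0.10 in mdx (limma, adjusted p = 0.0235 and 0.0248). Pex6, a peroxisome assembly factor named after its value was seen, rose by 0.30 ± 0.08 in mdx sln+/- (limma, adjusted p = 0.041). The 18 genes of mitochondrial content had no call in either comparison and medians of 0.00 and 0.09. Their summed abundance was 19200 to 20100 in mdx sln+/-, 17300 to 19200 in mdx and 17700 to 19100 in WT.

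**Figure D5:**
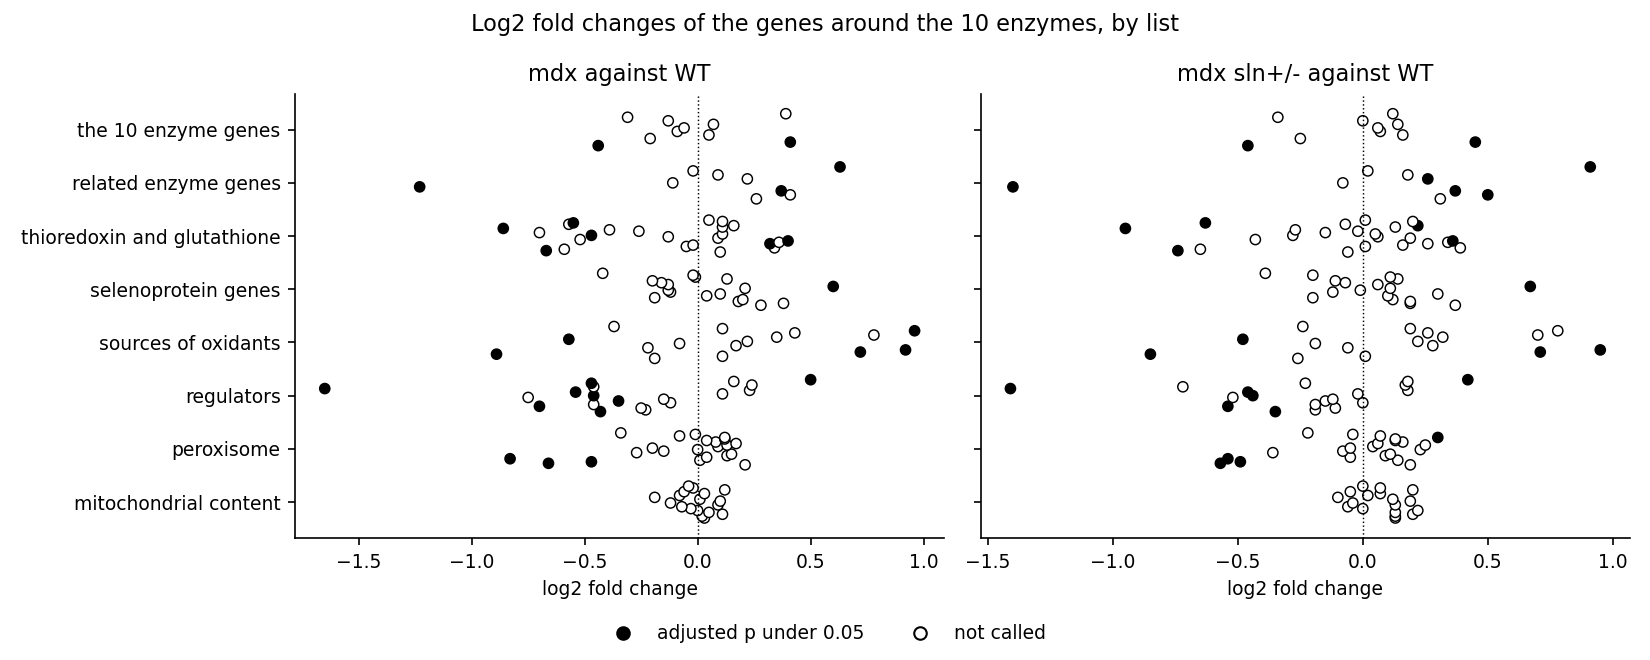
Log2 fold change of every tested gene in the 10 enzyme genes and 7 surrounding lists (rows), in mdx against WT (left) and mdx sln+/- against WT (right); filled points passed an adjusted p of 0.05. Of the 19 regulators 7 fell in mdx, and none of the 18 mitochondrial content genes passed.

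Markers of some other cell types moved with the same groups, while the endothelial and red blood cell sums, given further below, overlapped between groups. Of 18 macrophage markers 7 rose in mdx and 8 in mdx sln+/- against WT, and none fell. Their summed abundance was 392 to 461 in mdx sln+/-, 383 to 494 in mdx and 283 to 290 in WT, so these groups did not overlap WT. By itself that is common, since 51.4% of all genes tested did not overlap WT in mdx and 59.8% in mdx sln+/-. Mpeg1, a pore-forming protein of macrophages, rose by 1.93 ± 0.27 in mdx and by 1.87 ± 0.27 in mdx sln+/- (limma, adjusted p = 0.00788 and 0.00817). Of 9 smooth muscle and pericyte markers 2 rose in mdx, Des and Notch3, and none in mdx sln+/-. The sums were 2290 to 2630 in mdx sln+/-, 2470 to 2860 in mdx and 1930 to 1960 in WT. Des alone had log2 levels of 10.70 to 10.84 in mdx sln+/-, 10.83 to 11.05 in mdx, and 10.39 and 10.42 in WT. It thus makes up much of these sums, which say little of the other markers on the list. Des is not specific to smooth muscle and pericytes, so its rise does not describe those cells. Of 11 fibroblast markers 2 rose in each comparison, with sums of 1020 to 1150 in mdx sln+/-, 972 to 1310 in mdx and 758 to 915 in WT. Of 8 adipocyte markers only Plin4 had values here, and the other 7 could not be tested. Plin4 fell by 1.18 ± 0.24 in mdx and by 1.19 ± 0.24 in mdx sln+/- (limma, adjusted p = 0.0212 and 0.0202). A single gene does not describe a cell type. None of the 13 cardiomyocyte markers was called, with sums of 70900 to 74900 in mdx sln+/-, 68100 to 74500 in mdx and 67300 to 69500 in WT. What these cell types contribute to the levels of Cat, Gpx1 or Sod3 was not tested.

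Across the 8 libraries, Csdc2 and Cdc37l1 followed Cat most closely, with Pearson correlations of 0.997 and 0.995 among 11530 genes compared. Gbp2 (0.997) and Mob3a (0.995) followed Gpx1 most closely. These libraries share the group structure, so such values describe a split between WT and mdx background as much as any finer likeness.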

How the data were processed

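Paired-end libraries of left ventricular total RNA were analysed from the authors' deposited transcript table. STAR 2.6.1, mm10, Partek and limma are named in the submitters' processing notes. The authors deposited log2 values, with columns r1 and r2 per library. Values of 3.07e-05 to 16.2, none at or below 0, led to reading them as log2(abundance + 1), and each of the 16 columns could be mapped.

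The 10 genes and the lists were chosen with earlier results of these data known. r1 and r2 were averaged, and abundances were summed per gene. A gene was tested if it reached 1 in 2 or more libraries. limma 3.58.1 (R 4.3.3) was fitted on all 8 libraries with the group and a 0/1 term for mdx 2 and mdx sln+/- 2, a trended prior, 4 residual degrees of freedom and Benjamini-Hochberg adjustment at 0.05. The term matches a contrast absent from the deposited values (remainder up to 5.12e-05), and where WT stood in it is not known. Deviations of same-numbered mdx and mdx sln+/- libraries from their group means had correlations of -0.269, -1.0 and -0.357. The second follows from the removed term, which also constrains the others, since deviations add to 0 within a group. Pairing by number could thus not be checked, and the libraries were not paired. The fit was tested on simulated data first.

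Genes named are the 10 members, per list the pair with the lowest adjusted p in each comparison with WT, 11 further genes set beforehand, and the pair most correlated with each called member (mean log2 level of 1 or more). Another 10 genes (Gpx7, Gpx8, Gss, Glrx5, Txn2, Cyba, Rac2, Maob, Trp53 and Pex6) fall outside this rule and were chosen after their values were seen. Positions come from GENCODE M21. Similar transcripts were those that blastn 2.17.0 aligned with 90% identity or more for 300 bases or more. RefSeq promoters were matched for 9 of the 10 members, not Sod3. Values and figures were made in Python 3.11.15 (pandas 2.3.3, numpy 2.4.6, matplotlib 3.10.9).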

Additional observations from a re-analysis of the deposited data

How the results depend on the processing

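Depth cannot be judged, since no counts were used. In mdx against WT, 2 members, 1 member transcript and 41 list genes were called, and in mdx sln+/- against WT 2, 1 and 38. Without the removed term (group only) these were 4, 4 and 70 in mdx, and 3, 5 and 73 in mdx sln+/-. With name style as a term they were 0, 0 and 14 in mdx, and 0, 0 and 18 in mdx sln+/-. Among plain-named libraries they were 0, 0 and 4, and 0, 0 and 9. Without WT 2 and mdx sln+/- 3 together they were 0, 0 and 1 in each. Without mdx 1 and mdx sln+/- 1 together, a choice made after seeing the data, they were 0, 0 and 3, and 0, 0 and 8. With only the groups compared, which also leaves out the removed term, mdx sln+/- had 3 members (Sod2 added), 5 member transcripts and 69 list genes. Only 1 member was called in each comparison with r2 alone or the most abundant transcript. With r1 alone, member transcripts called were 0 in mdx and 2 in mdx sln+/-, with a constant prior 0 in mdx, and with median-ratio scaling 2 in mdx sln+/-, where 3 members were called (Sod2 added). Leaving out 1 library gave 0 to 3 members, 0 to 3 member transcripts and 12 to 65 list genes in mdx, and 0 to 3, 0 to 3 and 10 to 60 in mdx sln+/-. Without mdx 2 or mdx sln+/- 2 the removed term was not fitted either. Where it was kept, list genes ran from 12 to 37 in mdx and from 10 to 48 in mdx sln+/-. The fewest list genes came without WT 2 in mdx (12) and without mdx sln+/- 1 in mdx sln+/- (10). No setting called a member between mdx sln+/- and mdx. Causes of these shifts were not tested.

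Over all genes, 2080 calls in mdx and 2193 in mdx sln+/- against WT became 3798 and 3996 with group only, 559 and 711 with name style, and 124 and 349 among plain-named libraries. They were 154 and 66 without WT 2 and mdx sln+/- 3, 126 and 218 without mdx 1 and mdx sln+/- 1, and 638 to 3066 and 316 to 3289 without 1 library. Where a library was left out and the removed term was kept, they were 638 to 1566 and 316 to 2402. With only the groups compared, again without the removed term, mdx sln+/- had 3796. Median-ratio scaling gave 931 higher and 1137 lower genes in mdx sln+/- against WT, beside 1297 and 896, and among list genes 15 and 19, beside 23 and 15. The replicate block, though pairing by number could not be checked, gave 3 members in each comparison with WT (Cat, Gpx1 and Sod2, the last with adjusted p = 0.0389 in mdx and 0.0325 in mdx sln+/-, limma). It gave 2 member transcripts in mdx sln+/- against WT.

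Over all members and comparisons, log2 fold changes changed sign in 33 of 740 repeats. Each was of a value that was not called and was 0.12 or less in size or of Gpx3. In mdx against WT, Gpx3 became 0.38 without WT 2 and mdx sln+/- 3, Prdx1 0.01 with r2 alone and 0.007 with the most abundant transcript, and Prdx5 -0.043 without WT 2 and mdx sln+/- 3 and -0.057 with the most abundant transcript. Prdx3 became 0.02 with name style, 0.079 among plain-named libraries and 0.073 without mdx 1 and mdx sln+/- 1. For mdx sln+/- against WT, Sod1 became 0.004 with the replicate block and 0.064 with r2 alone, Sod3 -0.028 among plain-named libraries, Gpx3 0.23 without WT 2 and mdx sln+/- 3, Prdx1 -0.003 with r1 alone and Prdx3 -0.002 with median-ratio scaling. Between mdx sln+/- and mdx, Gpx3 became 0.059 without mdx 1 and mdx sln+/- 1. Leaving out 1 library moved log2 fold changes across 0 as well. In mdx against WT the range was -0.82 to 0.40 for Gpx3, -0.008 to 0.11 for Gpx4, -0.17 to 0.072 for Prdx3 and -0.045 to 0.19 for Prdx5. Against WT, mdx sln+/- gave -0.11 to 0.11 for Sod1, -0.86 to 0.36 for Gpx3 and -0.01 to 0.14 for Prdx1. Between mdx sln+/- and mdx it was -0.13 to 0.037 for Sod2, -0.073 to 0.015 for Cat, -0.006 to 0.11 for Gpx1 and -0.19 to 0.038 for Gpx3.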

Other observations

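Of 12 endothelial markers, 2 rose and 1 fell in mdx against WT, and 2 rose and none fell in mdx sln+/- against WT. Emcn, a sialomucin of capillary and venous endothelium, rose by 0.34 ± 0.07 in mdx and by 0.40 ± 0.07 in mdx sln+/- (limma, adjusted p = 0.0192 and 0.0117). Tek, the angiopoietin receptor, rose by 0.35 ± 0.09 in mdx and by 0.51 ± 0.09 in mdx sln+/- (limma, adjusted p = 0.0463 and 0.0152). Vwf, which encodes von Willebrand factor, went the other way, with a fall of 1.2 ± 0.27 in mdx (limma, adjusted p = 0.0286) and a difference of -0.88 ± 0.27 in mdx sln+/- (adjusted p = 0.067). The summed abundance of the endothelial list was 1330 to 1460 in mdx sln+/-, 1280 to 1430 in mdx and 1220 to 1430 in WT, so its groups overlapped.

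None of 5 red blood cell markers was called, with sums of 289 to 542 in mdx sln+/-, 284 to 904 in mdx and 328 to 471 in WT. These sums overlapped between groups. Of 6 neutrophil markers only Csf3r was tested, with log2 levels of 0.67 to 0.83 in mdx sln+/-, 0.63 to 1.23 in mdx, and 0.39 and 1.09 in WT.

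The other members' promoters were searched for the same motifs as those of Cat and Gpx1. Sod1, Sod2, Gpx3 and Gpx4 held a CCAAT box, and Sod1, Sod2, Gpx3, Gpx4, Prdx1, Prdx3 and Prdx5 held a GC box. Gpx4 has several windows, and neither box was in all of them. A TATA box was in Sod1, Prdx1 and Prdx3, and Prdx1 and Sod1 held the antioxidant response element core. The antioxidant core was not in the Cat or Gpx1 window, which says only that these letters are not there.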
